A study of Rattus norvegicus with 4 samples.

Results

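The mitochondrial DNA transcription and RNA stability factors are 10 nuclear genes whose proteins copy, transcribe or stabilise the mitochondrial genome and its RNA, or switch on the genes that do. They were chosen by name, and all 10 have 1 row each in the deposited table, among 14137 gene identifiers in all. The cells were ventricular cardiomyocytes taken from newborn rats, a primary preparation in which other cell types of the heart persist, and total RNA was sequenced 5 days after infection with lentivirus. Both groups carry a virus with a short hairpin RNA: 2 libraries received a control hairpin (labelled WT) and 2 a hairpin against Crat, carnitine acetyltransferase (labelled KO, although a hairpin lowers a transcript and deletes no gene). The rats' strain is not given, and the labels do not state whether replicates are independent cultures. The p-values therefore measure the spread between these libraries, which may be technical.

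Mitochondrial DNA is transcribed by a single-subunit polymerase, Polrmt, which needs Tfam to bend the promoter DNA and Tfb2m to melt it, and Tefm to elongate. The helicase Twnk and the polymerase Polg copy the genome. The transcripts are long polycistronic RNAs that are cut, polyadenylated and held in a stable pool by the Lrpprc and Slirp complex, and degraded with the help of polynucleotide phosphorylase, Pnpt1. Gabpa, the DNA-binding subunit of the ETS factor GABP (also called NRF-2, and unrelated to Nfe2l2, which is often called Nrf2), and the separate factor NRF-1 are classical activators of these nuclear genes in energy-rich tissues such as heart.

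Promoter stretches are shown because both activators are known for sites in the promoters of such genes. Windows from 250 bases before to 50 bases after the start site were taken from RefSeq (build GRCr8), and all 10 genes matched by symbol. The letters CCGGAAGT, a GABP/ETS site, were found on either strand in 3 of 10 windows, against 3.81% of all 33469 windows. The shorter CCGGAAG, which the longer motif contains, was in 7 of 10, against 8.75% of all windows. The NRF-1 core CGCATGCG, a palindrome, was in 2 of 10, against 1.66%. All windows include those of genes not tested here, whereas all 10 factors were tested, and the letters are more frequent among tested genes. Of these, 794 had a window with CCGGAAGT and 8607 one without. The numbers were 1726 and 7721 for CCGGAAG, and 360 and 9017 for the NRF-1 core. The members' windows had a median GC content of 59.5%, against 51.7% over all windows, and the motifs are GC-rich. A match describes letters and does not show that a factor binds. Capitals mark the motif, and each stretch reads along the gene's strand:
Tfam, chr20:17355307-17355334, plus strand: ctgctgcagaCCGGAAGTctgggcctcc
Polg, chr1:142808942-142808969, minus strand: agggcctcacCCGGAAGTccctctgcca
Tefm, chr10:65622044-65622071, minus strand: acacacaaaaCCGGAAGTtggtggagga
Tfb2m, chr13:93828623-93828650, minus strand: ctaggtcgttCGCATGCGccattcgtaa
Gabpa, chr11:37375253-37375280, plus strand: ctgcactgtaCGCATGCGtgctttggcc
Gabpa, chr11:37375169-37375195, plus strand: agggtaagtgCTTCCGGgtccctcagc

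In Tfam, Polg and Tefm the GABP/ETS letters begin 56, 121 and 19 bases before the start site. The NRF-1 core begins 46 bases before the start of Tfb2m and spans the annotated start of Gabpa itself. Gabpa also holds the short GABP/ETS letters, on the opposite strand, 85 bases before its start. The short form was further found in Polrmt, 49 bases before the start, in Twnk, 94 and 61 bases before, and in Slirp, 81 bases before and 18 after. The windows of Lrpprc and Pnpt1 held none of these 3 motifs.

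Across the 4 libraries, Gabpa and Pnpt1 rose with the Crat hairpin and the other 8 factors did not pass the test in either direction. Thus 2 of 10 rose and 0 fell by limma, with p-values adjusted over all 12949 genes tested by the Benjamini-Hochberg method and a threshold of 0.05. Over all genes tested, 12.6% passed as higher and 6.36% as lower, or 1631 and 823 genes (1007 and 1278 after TMM scaling), and 2 calls among 10 genes are too few to set apart from that background. At an unadjusted p under 0.05 the counts were 3 higher and 1 lower, the additional genes being Polrmt and Tfb2m, where 21.2% of all genes tested were higher and 10.4% lower. The median log2 fold change of the 10 was 0.09, beside 0.15 over all genes tested. All 10 passed the filter on low values, a mean of at least 1 RPM (reads scaled to a library total of 1000000). The libraries of the groups did not overlap for 4 factors that were higher with the Crat hairpin (Polrmt, Lrpprc, Pnpt1 and Gabpa) and for 2 that were lower (Tfb2m and Polg), where 39.1% and 21.7% of all genes tested did so. By the adjusted p of the authors' deposited table, at the same threshold, Gabpa and Pnpt1 were higher and 0 of the 10 lower, against 4.91% and 5.60% of all genes in it.

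**Figure D1:**
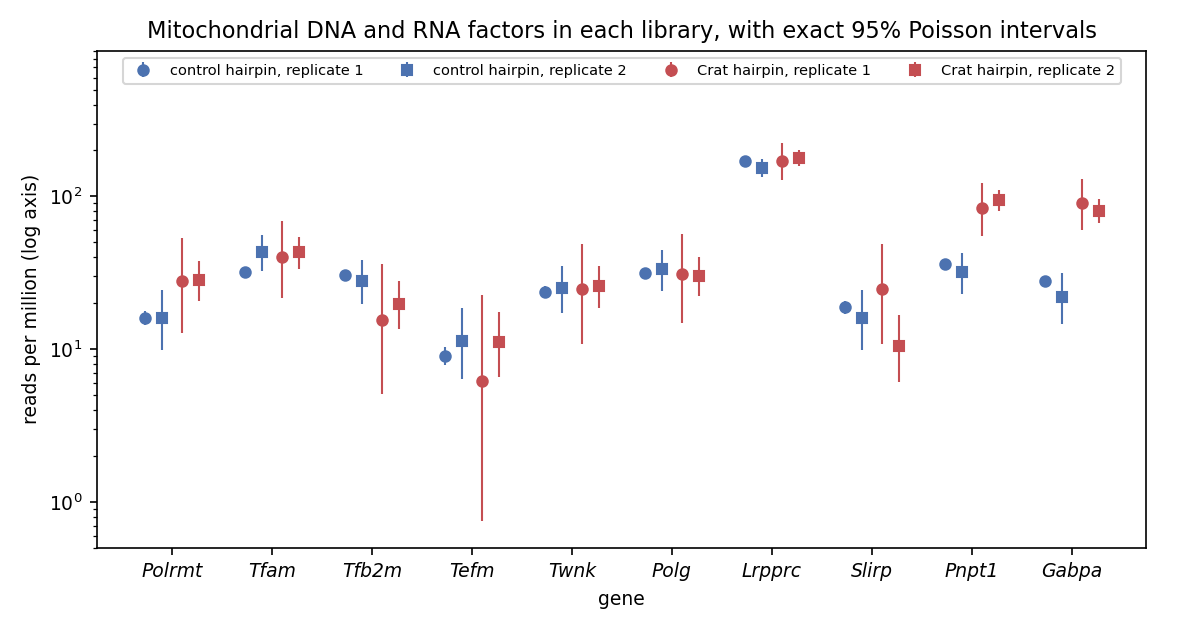
RPM (log axis) of the 10 factors in each of the 4 libraries. Bars are exact 95% Poisson intervals of the read counts and cover counting error only. Gabpa and Pnpt1 stand higher in both Crat hairpin libraries, and the intervals are widest in Crat hairpin replicate 1, the shallowest library.

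Depth limits all of these values. The reads behind the table ranged from 321516 in Crat hairpin replicate 1 to 23680064 in control replicate 1, a 73.7-fold spread, so a single read is worth 3.11 RPM in the former. The values are headed TPM but are not divided by gene length, so levels are not compared between genes. Crat itself, the check of the hairpin, stood at 148 and 156 RPM in the controls and at 24.9 and 19.7 RPM with the Crat hairpin. Heart muscle markers identify the cells but fell: 8 of 10 tested were lower, and their summed share of reads went from 3.05% and 3.10% to 1.23% and 1.27%. Over all genes tested, 6.36% passed as lower and 12.6% as higher by limma. In such bulk RNA, fewer muscle cells and less RNA per cell cannot be told apart. Of markers of the other cell types, 6 of 8 for smooth muscle and pericytes fell and 1 rose, 5 of 10 for fibroblasts fell and 3 rose, 1 of 6 for endothelium fell and 1 rose, and none of 9 for leukocytes passed (limma; also none at an unadjusted p under 0.05). Summed marker levels went from 0.667% and 0.679% of reads to 0.239% and 0.251% for smooth muscle and pericytes, and from 2.30% and 2.39% to 1.69% and 1.73% for fibroblasts. They were 56.6 and 66.6 RPM against 71.5 and 65.9 RPM for endothelium, and 55.9 and 54.5 RPM against 65.3 and 62.2 RPM for leukocytes. In Crat hairpin replicate 1, the shallowest library, 1 marker each of smooth muscle, endothelium and leukocytes was at 0 reads. The part of these shifts in the values of the 10 factors was not tested.

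Gabpa stood at 28.1 and 21.9 RPM in control replicates 1 and 2, and at 90.2 and 80.7 RPM in Crat hairpin replicates 1 and 2. Both Crat hairpin values lie above both control values. The means were 25.0 ± 4.34 and 85.5 ± 6.71 RPM (SD, n = 2 each). The log2 fold change, taken on log2(RPM + 1), was 1.74 ± 0.21 (SE; limma adjusted p = 3.3e-04), a 3.34-fold rise with a 95% interval of 2.41 to 4.63. The shallowest library holds 29 reads of Gabpa and its partner Crat hairpin library 131. In the authors' deposited table the adjusted p of Gabpa is 1.4e-04.

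Gabpa works as a complex with a beta subunit that carries the activation domain, and neither beta gene tested passed by limma. Gabpb1 stood at 34.1 and 41.6 RPM in the controls and at 46.7 and 22.8 RPM with the Crat hairpin, with a log2 fold change of -0.20 ± 0.32 (SE; limma adjusted p = 0.715). Its groups overlap, and its Crat hairpin libraries lie on both sides of the controls. Gabpb1 passed as lower by edgeR on the recovered reads, at -0.59 (adjusted p = 0.0393), and by limma without Crat hairpin replicate 1, at -0.70 (adjusted p = 0.0239), and it stood at 0.30 without Crat hairpin replicate 2 (adjusted p = 0.206). Gabpb2 had a log2 fold change of 0.23 ± 0.64 (SE; limma adjusted p = 0.836). Without Crat hairpin replicate 1 Gabpb2 passed as higher, at 1.12 (adjusted p = 0.0432), and without Crat hairpin replicate 2 it stood at -0.65 (adjusted p = 0.232). The log2 ratio of Gabpa to Gabpb1, chosen after these values were seen, was -0.28 and -0.92 in the controls and 0.95 and 1.82 with the Crat hairpin. That ratio is free of library scaling, and its groups do not overlap (exact two-sided permutation p = 0.333, the smallest that 2 against 2 allows).

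Gabpa lies head to head with Atp5pf, which encodes coupling factor 6 of the ATP synthase stalk. In the RefSeq table their starts are 163 bases apart on opposite strands. Atp5pf stood at 118 and 113 RPM in the controls and at 62.2 and 75.2 RPM with the Crat hairpin. Atp5pf had a log2 fold change of -0.75 ± 0.16 (SE; limma adjusted p = 0.00864), the opposite direction to Gabpa. Without control replicate 1 or 2 the Atp5pf call was lost (adjusted p = 0.231 and 0.200), with log2 fold changes of -0.71 and -0.78. The RefSeq spans of the 2 genes overlap and the strand setting of the library is not given, so reads from the shared stretch could be assigned to either.

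Tfb2m is the other of the 10 with a divergent start within 1000 bases, which 11% of all start sites in the table have. Its neighbour is Cnst, whose start lies 100 bases away and which encodes consortin, a connexin transport protein. Cnst stood at 55.9 and 57.5 RPM in the controls and at 49.8 and 68.4 RPM with the Crat hairpin, and its groups overlap. The neighbours were looked up after the values of the 10 factors were known.

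**Figure D2:**
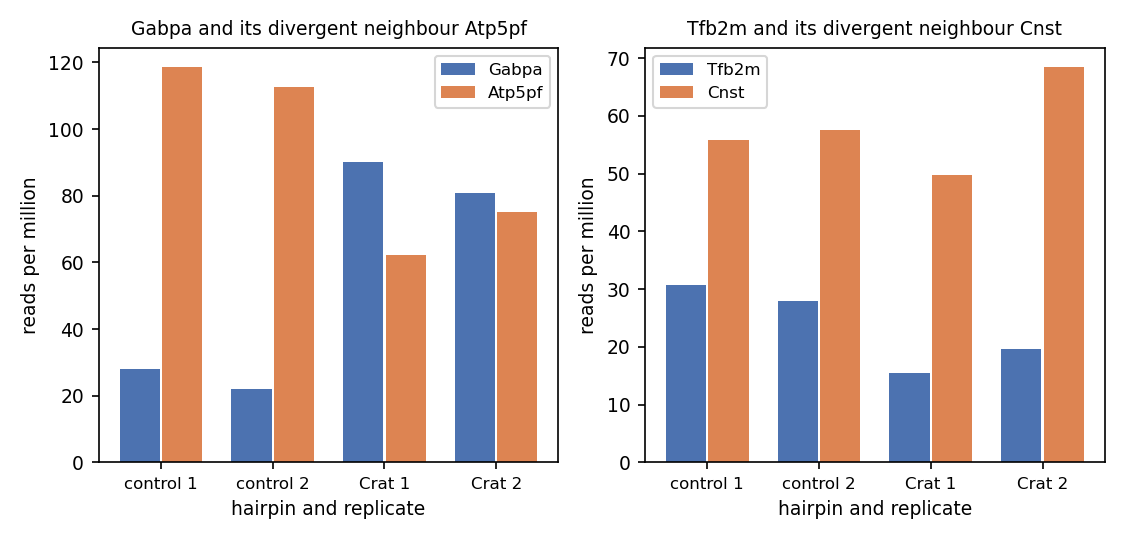
RPM of Gabpa and Atp5pf (left) and of Tfb2m and Cnst (right) in each library, 1 bar per gene and library. Gabpa is higher and Atp5pf lower in both Crat hairpin libraries, while Cnst overlaps between groups.

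Pnpt1, which encodes polynucleotide phosphorylase, an exoribonuclease of mitochondria that also takes part in RNA import, was the second factor to rise. It stood at 36.1 and 31.8 RPM in the controls and at 84.0 and 94.3 RPM with the Crat hairpin. The groups do not overlap, and the lowest Crat hairpin value rests on 27 reads. The log2 fold change was 1.37 ± 0.18 (SE; limma adjusted p = 6.8e-04), a 2.58-fold rise with a 95% interval of 1.94 to 3.44. Without control replicate 2 the Pnpt1 call was lost (adjusted p = 0.0565), with a log2 fold change of 1.28. In the authors' deposited table the adjusted p of Pnpt1 is 0.00161. Its helicase partner in the mitochondrial degradosome, Supv3l1, stood at 34.5 and 31.0 RPM in the controls and at 31.1 and 31.4 RPM with the Crat hairpin (log2 fold change -0.06, limma adjusted p = 0.878, 95% interval -0.58 to 0.45).

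Pnpt1 is known as an interferon-inducible gene. By limma all 17 other interferon-stimulated genes tested rose in these libraries, where 12.6% of all genes tested did. Those 17 had a median log2 fold change of 6.13 and a lowest of 2.74. Their summed level went from 0.0350% and 0.0254% of reads to 1.26% and 1.31%. The part of interferon signalling in the Pnpt1 value was not tested. The letters GAAANNGAA, the core of the interferon-stimulated response element, were in none of the 10 windows, against 9.71% of all windows. The 150 bases before the Pnpt1 start (GRCr8, chr14:107078336-107078485, plus strand) do hold the looser AANNGAAA, a core bound by interferon regulatory factors, beginning 69 bases before the start. It is printed in capitals:
Pnpt1: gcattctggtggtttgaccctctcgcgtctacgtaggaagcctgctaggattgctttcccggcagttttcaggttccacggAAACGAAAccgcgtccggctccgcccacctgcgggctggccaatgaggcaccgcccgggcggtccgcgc

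That motif was searched only after this stretch had been read. It occurs in 26.4% of all windows, on either strand, and in no other window of the 10. Its presence here is a description of the letters.

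The transcription machinery proper did not pass the test, and its 4 genes did not share a direction. Polrmt, the polymerase, stood at 16.0 and 15.9 RPM in the controls and at 27.99 and 28.3 RPM with the Crat hairpin. The groups do not overlap and the spread within each is small, but the lowest read counts are 21 and 9. Its log2 fold change was 0.78 ± 0.27 (SE; limma adjusted p = 0.0802, 95% interval 0.17 to 1.40), and after TMM scaling it was 0.59 (adjusted p = 0.192). Polrmt passed with voom weights (adjusted p = 0.00326). It did not pass by edgeR, at 0.61 (adjusted p = 0.0643), or by DESeq2, at 0.63 (adjusted p = 0.555). With each library left out in turn, its log2 fold change ran from 0.77 to 0.79. Whether Polrmt passed then turned on which library was left out, and the reduced arm has no spread of its own. In the authors' deposited table its adjusted p is 0.678.

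Tfb2m, which melts the promoter for Polrmt, stood lower: 30.7 and 27.99 RPM in the controls against 15.6 and 19.7 RPM with the Crat hairpin. The groups do not overlap, and the Crat hairpin values rest on 5 and 32 reads. The log2 fold change was -0.71 ± 0.28 (SE; limma adjusted p = 0.112, 95% interval -1.34 to -0.09). Tfb2m passed as lower by edgeR (-0.88, adjusted p = 0.00347) and without Crat hairpin replicate 2 (-0.87, adjusted p = 0.00926), and without Crat hairpin replicate 1 it was at -0.55 (adjusted p = 0.0824). By DESeq2 on the same reads it did not pass (adjusted p = 0.309).

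Tfam, which also packs mitochondrial DNA into nucleoids, stood at 32.0 and 43.1 RPM in the controls and at 40.4 and 43.1 RPM with the Crat hairpin. The controls differ from each other by more than the groups do. The log2 fold change was 0.16 (limma adjusted p = 0.663, 95% interval -0.35 to 0.68), and it was below 0 after TMM scaling, at -0.036. The elongation factor Tefm is the thinnest of the 10: 9.08 and 11.3 RPM in the controls against 6.22 and 11.1 RPM, the former counted with 2 reads. Its interval of -1.26 to 0.74 around a log2 fold change of -0.26 reaches past a 2-fold lower level, so it includes a fall of that size.

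The 2 replication genes stood at close levels in both groups. Twnk was at 23.7 and 25.0 RPM in the controls and at 24.9 and 25.9 RPM with the Crat hairpin, with a log2 fold change of 0.06 and a 95% interval of -0.52 to 0.63. Polg, the catalytic subunit of the mitochondrial DNA polymerase, was at 31.4 and 33.3 RPM in the controls and at 31.1 and 30.2 RPM with the Crat hairpin. Its log2 fold change was -0.07, with an interval of -0.59 to 0.44. The limma adjusted p was 0.902 for Twnk and 0.856 for Polg, which does not show that either was unaltered. The Twnk span overlaps Mrpl43, and that of Polg overlaps Fanci, in the RefSeq table.

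**Figure D3:**
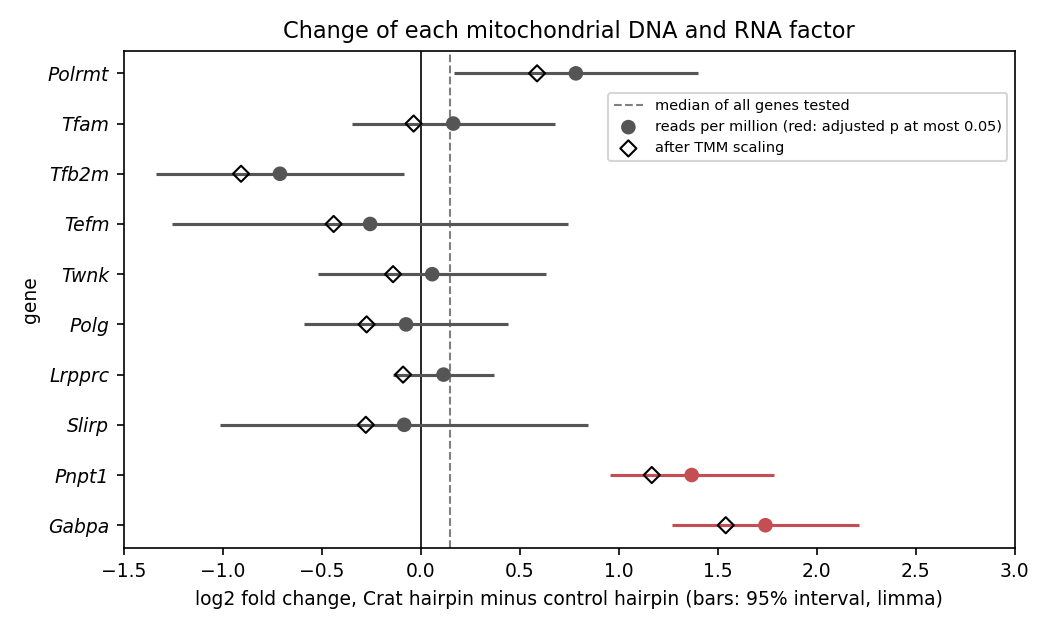
Log2 fold change (Crat hairpin minus control hairpin) of each factor on log2(RPM + 1), with 95% limma intervals; diamonds give the value after TMM scaling and the dashed line the median of all genes tested, 0.15. The intervals of Pnpt1 and Gabpa start at 0.95 and 1.27, and TMM scaling moves every factor down, with Tfam, Twnk and Lrpprc crossing 0.

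Lrpprc and Slirp bind each other and keep mitochondrial mRNAs from decay. Lrpprc is the most precisely measured of the 10, with 55 reads in the shallowest library: 170 and 154 RPM in the controls against 171 and 179 RPM. The log2 fold change was 0.11 ± 0.11 (SE; limma adjusted p = 0.532), with an interval of -0.14 to 0.37, and TMM scaling put it at -0.089. Slirp stood at 18.7 and 15.9 RPM in the controls and at 24.9 and 10.5 RPM with the Crat hairpin. Its 2 Crat hairpin libraries lie on either side of the controls and differ 2.38-fold, on 8 and 17 reads.

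The Slirp value turned on which library was weighed. Its log2 fold change was -0.08 (limma adjusted p = 0.913, interval -1.01 to 0.84), 0.50 without Crat hairpin replicate 2 and -0.67 without Crat hairpin replicate 1. Pooling the reads of each group gave 18.6 RPM in the controls and 12.9 RPM with the Crat hairpin, and edgeR gave a log2 fold change of -0.70 (adjusted p = 0.0882). The log2 ratio of Slirp to Lrpprc was -3.18 and -3.27 in the controls and -2.78 and -4.09 with the Crat hairpin (exact two-sided permutation p = 1). The Slirp span overlaps Alkbh1 and Snw1 in the RefSeq table.

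The RNAs that these factors are known to act on were read in the same libraries. The 13 mRNAs encoded by mitochondrial DNA made up 9.47% and 9.08% of reads in the controls and 3.64% and 3.62% with the Crat hairpin (exact two-sided permutation p = 0.333, the smallest possible here). By limma all 13 fell and 0 rose, where 6.36% of all genes tested fell. Their log2 fold changes ran from -0.89 for COX1 to -2.45 for ND4L. None of the 10 nuclear factors fell by limma (Tfb2m did by edgeR). The heart muscle markers also fell, from 3.05% and 3.10% of reads in the controls to 1.23% and 1.27% with the Crat hairpin. Neither the part of the cell make-up nor that of the 10 factors in the fall of the 13 mRNAs was tested.

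The wider machinery was read from 4 lists, and many of its values turned on which Crat hairpin library was kept. Over all genes, 2598 were called higher and 1334 lower without Crat hairpin replicate 1, and 3592 and 2626 without Crat hairpin replicate 2. Among 7 further genes listed with the core transcription machinery, none passed by limma, beside 12.6% higher and 6.36% lower over all genes tested. At an unadjusted p under 0.05, 1 was higher and 0 lower, beside 21.2% and 10.4%. By edgeR and DESeq2 0 of the list passed, and with voom weights 1 was higher. The transcription-linked ribosomal protein Mrpl12 was at 62.1 and 59.0 RPM in the controls and at 65.3 and 61.0 RPM with the Crat hairpin. Mterf3, a repressor of mitochondrial transcription, was at 27.6 and 31.0 RPM against 62.2 and 37.0 RPM (log2 fold change 0.70, limma adjusted p = 0.113), and it is the gene that passed with voom weights. Mterf3 also passed without Crat hairpin replicate 2 (log2 fold change 1.06, adjusted p = 8.6e-04) and stood at 0.33 without Crat hairpin replicate 1 (adjusted p = 0.251). Without Crat hairpin replicate 2, the log2 fold change was 1.82 for Tfb1m and -0.90 for Mterf1, beside 0.48 and 0.23 without Crat hairpin replicate 1. Tfb1m was at 11.1 and 4.54 RPM in the controls and at 27.99 and 10.5 RPM with the Crat hairpin. Mterf1 was at 11.4 and 13.6 RPM against 6.22 and 14.8 RPM. Leaving out Crat hairpin replicate 2 keeps only the shallowest Crat hairpin library, where a single read is worth 3.11 RPM.

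Among 15 genes of DNA replication and upkeep, again none passed by limma, beside 12.6% higher and 6.36% lower over all genes tested. At an unadjusted p under 0.05, 2 were higher and 0 lower, beside 21.2% and 10.4%. By edgeR and DESeq2 0 passed. With voom weights Top3a, Tk2 and Dguok passed as higher. Without Crat hairpin replicate 2 the counts were 6 higher and 3 lower, and without Crat hairpin replicate 1 they were 1 and 0. The DNA ligase Lig3 was at 50.5 and 56.0 RPM in the controls and at 74.6 and 56.1 RPM with the Crat hairpin. The nucleoid-associated ATPase Atad3a was at 35.4 and 34.0 RPM against 21.8 and 49.9 RPM, and its groups overlap. Atad3a passed in opposite directions, as higher without Crat hairpin replicate 1 (0.51, adjusted p = 0.0483) and as lower without Crat hairpin replicate 2 (-0.65, adjusted p = 0.0222).

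Of 19 genes of mitochondrial RNA processing and decay, 2 rose and 0 fell by limma, beside 12.6% and 6.36% of all genes tested. At an unadjusted p under 0.05, 3 were higher and 0 lower, beside 21.2% and 10.4%. By edgeR 2 rose and 1, Rexo2, fell, by DESeq2 0 passed, and with voom weights 5 rose and 0 fell. Without Crat hairpin replicate 1 the counts were 5 higher and 1 lower, without Crat hairpin replicate 2 they were 5 and 2, and without either control library 0 passed. Fastk, founder of a family of mitochondrial RNA-binding proteins, was at 49.7 and 43.1 RPM in the controls and at 68.4 and 94.3 RPM with the Crat hairpin. Its log2 fold change was 0.78 ± 0.20 (SE; limma adjusted p = 0.0246). Angel2, of the CCR4-like nuclease family, was at 34.8 and 34.0 RPM against 52.9 and 63.5 RPM. For Angel2 the log2 fold change was 0.74 ± 0.20 (SE; limma adjusted p = 0.0319). Both calls were lost after TMM scaling, with log2 fold changes of 0.58 for Fastk (adjusted p = 0.0890) and 0.53 for Angel2 (adjusted p = 0.111). Both were also lost without control replicate 1, at 0.88 and 0.75 (adjusted p = 0.216 and 0.317), and without control replicate 2, at 0.68 and 0.72 (adjusted p = 0.376 and 0.375). The median log2 fold change of this list was 0.41, the furthest above the median of all genes among the 4 lists.

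Of 11 further nuclear regulators, 2 rose and 0 fell by limma, beside 12.6% and 6.36% of all genes tested. At an unadjusted p under 0.05, 3 were higher and 0 lower, beside 21.2% and 10.4%. By DESeq2 1 regulator, Nfe2l2, rose, by edgeR 2 rose and Gabpb1 fell, and with voom weights 3 rose and 0 fell. Nfe2l2, the activator of antioxidant genes, was at 194 and 182 RPM in the controls and at 429 and 352 RPM with the Crat hairpin. Nfe2l2 had a log2 fold change of 1.04 ± 0.11 (SE; limma adjusted p = 1.7e-04). Esrra, the estrogen-related receptor alpha, an orphan nuclear receptor that drives mitochondrial genes, was at 17.6 and 18.2 RPM against 43.5 and 30.8 RPM. Esrra had a log2 fold change of 0.995 ± 0.28 (SE; limma adjusted p = 0.0324). By DESeq2 Esrra did not pass, at 0.79 (adjusted p = 0.311), and in the authors' deposited table its adjusted p is 0.458. The Esrra call was lost after TMM scaling, at 0.80 (adjusted p = 0.0767), without control replicate 1, at 0.97 (adjusted p = 0.337), and without control replicate 2, at 1.02 (adjusted p = 0.355). Without Crat hairpin replicate 1, 3 of the 11 were higher and 1 lower, and without Crat hairpin replicate 2, 3 and 0. The coactivator Ppargc1a was at 24.7 and 18.2 RPM in the controls and at 12.4 and 33.3 RPM with the Crat hairpin, and Nrf1 at 21.1 and 25.7 against 15.6 and 34.5 RPM. In both, the Crat hairpin libraries lie on either side of the controls. Gabpb1, Gabpb2, Supv3l1, Ppargc1a, Nrf1, Rexo2, Tfb1m, Mterf1, Top3a, Tk2 and Dguok were named after their values were seen.

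**Figure D4:**
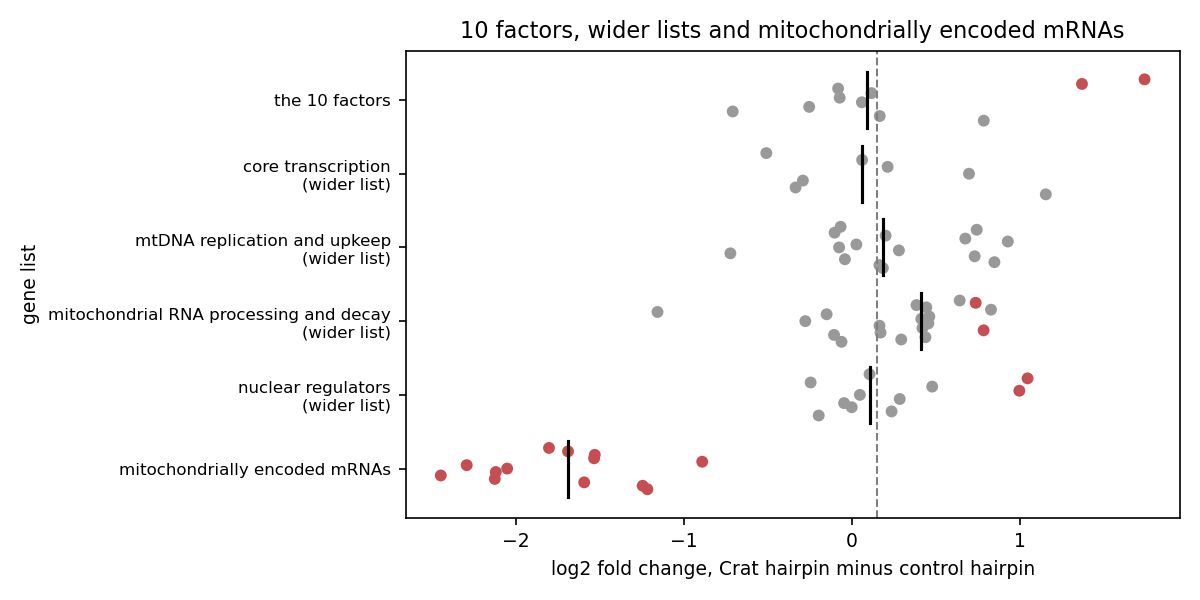
Log2 fold change (Crat hairpin minus control hairpin, on log2(RPM + 1)) of each tested gene in the 10 factors, the 4 wider lists and the 13 mitochondrially encoded mRNAs. Points in red passed the limma test, black bars are list medians and the dashed line is the median of all genes tested. The nuclear lists centre between 0.06 and 0.41, while the mitochondrially encoded mRNAs centre at -1.69.

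Over the tested genes with a window matched by symbol, the GABP/ETS letters were set beside the fold changes as a description. A gene with several windows can be counted both with and without a motif, and tested genes without a matched window are left out. Of 794 tested genes with a window that holds CCGGAAGT, 10.5% rose and 2.77% fell by limma. Of 8607 tested genes with a window that lacks it, 13.3% rose and 6.97% fell. The median log2 fold changes were 0.21 and 0.14. For the NRF-1 core, 11.7% of 360 genes with it rose and 6.39% fell, beside 13.1% and 6.64% of 9017 without it. For the interferon-stimulated response element core, 20.9% of 705 genes with it rose and 5.96% fell, beside 12.5% and 6.71% of 8728 without it.

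By distance between centred log2(RPM + 1) profiles over the 4 libraries, the named genes nearest to Gabpa among 10056 were Agpat3, Phf8 and Ptx3, at 0.09, 0.12 and 0.12. Those nearest to Pnpt1 were Hspb8, Fut8 and Tmbim6, at 0.05, 0.06 and 0.06. The log2 fold changes were 1.72 for Agpat3, 1.72 for Phf8 and 1.64 for Ptx3. They were 1.38 for Hspb8, 1.36 for Fut8 and 1.37 for Tmbim6, and all 6 genes passed by limma. These genes were picked for profiles like those of factors that had passed. Their like fold changes and calls therefore follow from the choice and are no separate result.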

How the data were processed

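The authors deposited a table with a gene identifier, symbol, 1 value per library, group means, and a p-value, raw and adjusted. The submitters' processing notes name kallisto, DESeq2 and the build mRatBN7.2, without versions; the sources used here do not say how transcripts were summed or rows filtered. The deposited library signal carries the name TPM per the file headers. Dividing by 1 step per library gave whole numbers (within 0.02) for 100% of values, so the unit is RPM with no length term, and reads were recovered. The 14318 rows hold 14137 identifiers, each used once.

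Values were fitted as log2(RPM + 1) with limma 3.58.1 (variance trend, R 4.3.3) where a gene's mean reached 1 RPM. The design had assumed TPM. Benjamini-Hochberg adjustment ran over all 12949 genes, with a threshold of 0.05. Scripts were tested on simulated data. The alternatives (pseudocount, filter, scaling, variance model, edgeR 4.0.16, DESeq2 1.42.0, block, each library left out) are in the closing section. The 10 genes, the wider lists and the naming rule were chosen with earlier results of these data known. The rule names all 10 genes; from each wider list up to 3 that passed, by size, or otherwise 2 by mean; the extreme mitochondrially encoded mRNAs; and 3 nearest profiles for each factor that passed. Exceptions are named as such. Intervals of read counts are exact Poisson at 95% and cover counting error only. Genes listed but without a value were not analysed here.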

Additional observations from a re-analysis of the deposited data

How the results depend on the processing

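Of the 18 alternatives, Gabpa passed as higher in 17 and Pnpt1 in 16, with log2 fold changes from 1.39 to 1.91 and from 1.14 to 1.46. Without a variance trend neither passed (adjusted p = 0.0516 and 0.0561), so 0 factors were called higher. The count of factors called lower was 1 by edgeR. With each library left out in turn, 1 to 3 factors were called higher and 0 to 1 lower. TMM, median-of-ratios and quantile scaling moved the median of all genes from 0.15 to -0.04, -0.03 and -0.03. Genes called higher were then 1007, 1044 and 953, against 1631, and genes called lower 1278, 1254 and 1118, against 823. Without a variance trend the counts were 266 and 79, with voom weights 3476 and 1250, by edgeR 1774 and 2065, and by DESeq2 749 and 867. With a library left out they ran from 419 to 3592 and from 175 to 2626. The replicate number as a block gave 1701 and 895, with Gabpa and Pnpt1 called (adjusted p = 6.8e-05 and 3.4e-04), and changed no call on the 10 factors. The numbers share only a label: same-numbered libraries' deviations from group means correlated at -0.003.

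Among the 10 factors and Cnst, the genes whose sign turned passed in none of the 18 alternatives. Tfam was at -0.036, -0.024 and -0.073 under the 3 scalings, and with a library left out ran from -0.045 to 0.37. Twnk was at -0.14, -0.13 and -0.17, at -0.026 with totals that leave out mitochondrially encoded genes, at -0.10 by edgeR and at -0.12 by DESeq2. Lrpprc was at -0.089, -0.077 and -0.091, at -0.11 by edgeR and at -0.080 by DESeq2. Tefm was at 0.19 with voom weights, and with a library left out ran from -0.63 to 0.12. Slirp ran from -0.67 to 0.50 with a library left out, being above 0 at 0.03 without control replicate 1. Cnst was at -0.16, -0.15 and -0.19, at -0.045 with those totals, at -0.0013 by edgeR and at -0.058 by DESeq2, and ran from -0.18 to 0.27 with a library left out. The cause was not tested.

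With a library left out, the difference in mitochondrially encoded share ran from -5.84 to -5.45 percentage points, the Slirp to Lrpprc log2 ratio difference from -0.87 to 0.44, and the Gabpa to Gabpb1 difference (chosen after seeing the data) from 1.55 to 2.43. An arm left with 1 library is assumed to vary like the other. Depth limits Tefm and Tfb2m, with 2 and 5 reads in the shallowest library.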
